A study of Homo sapiens with 20 samples.

Results

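The hormone response of T47D cells given an siRNA against CBX3 was set against the response of the same line given a control siRNA. T47D is an established line from a human luminal breast tumour, with receptors for progesterone and oestrogen, and R5020 is a synthetic progestin. 8 of the 20 samples of the series enter the comparison: si-CBX3 at 6 h and at 0 h of 10 nM R5020, and si-control at 6 h and at 0 h, with 2 RNA-seq libraries in each group. Per the labels, cells stood in charcoal-stripped serum and then overnight without serum before the hormone was added, so the 0 h libraries are hormone- and serum-deprived cells (the labels of the first si-CBX3 library at 0 h give no protocol). The 4 si-BRG1 and 4 si-FOXA1 libraries, made at the same times, entered the fit and lent their spread. Members are the genes whose change from 0 h to 6 h itself differed between the siRNAs, which was 1690 of 18806 genes tested.

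CBX3 encodes HP1 gamma, one of the heterochromatin protein 1 family, which bind methylated lysine 9 of histone H3, recruit co-repressors, and in the case of HP1 gamma also sit on the bodies of transcribed genes. The progesterone receptor is a nuclear receptor that binds DNA after hormone and drives genes such as FKBP5, and in breast cancer cells progestins also switch on the ERK kinase cascade. Immediate-early genes, among them FOS, JUN and DUSP1, are the first transcripts made when that cascade or a stress kinase fires.

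The 8 libraries held 50017255 to 66980856 fragments assigned to genes. Levels are given as CPM, the fragments of a gene scaled to the library's TMM-adjusted total, with the first library of a group before the second. CBX3 had 3.07 and 3.74 CPM at 6 h and 6.80 and 6.37 CPM at 0 h in si-CBX3, against 258 and 266 CPM at 6 h and 242 and 266 CPM at 0 h in si-control. The knockdown held at both times, by a factor of 76.7 at 6 h and 38.6 at 0 h. The remaining CBX3 transcript was itself lower at 6 h, with an interaction of -0.99 ± 0.15, adjusted p = 0.00042 (log2 ± SE, edgeR). SMARCA4, FOXA1 and H1-2 were not called in the interaction (-0.40, 0.10 and 0.13). SMARCA4 was called when only the 8 libraries were fitted (adjusted p = 0.021 in edgeR) and without a filter on low counts (adjusted p = 0.0273 in edgeR). Nothing in the labels ties the 2 libraries of a group to separate cultures; the error behind each p-value is the spread of these libraries, which may be technical. Per the file headers the si-CBX3 files were counted with 1 thread and the si-control files with 8, in separate commands. Only a difference between these sets that is the same at 0 h and 6 h on the log2 scale cancels in the interaction. One that varies with time does not cancel and cannot be told apart from an effect of the siRNA.

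The interaction is the response in si-CBX3 minus the response in si-control, both as log2 of 6 h over 0 h, and a call means a Benjamini-Hochberg adjusted p below 0.05 in edgeR's quasi-likelihood test. The response was higher in si-CBX3 for 870 genes (4.63% of those tested) and lower for 820 (4.36%), of which 108 and 188 differed by 2-fold or more. In all 1690 the pairwise 6 h minus 0 h differences of si-CBX3 lay outside those of si-control, as they did for 41.3% of all genes tested. At the threshold stood RACGAP1 just inside (interaction 0.34 ± 0.10, adjusted p = 0.049952 in edgeR) and ANXA4 just outside (0.37 ± 0.11, adjusted p = 0.050022). Leaving out 1 library at a time gave 830 to 2029 calls. The count fell by more than 1.5 times without either si-CBX3 library at 6 h (996 without the first, 830 without the second), without either at 0 h (1081 and 841), without the second si-control library at 6 h (969) and without the second at 0 h (1053).

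More genes were called in either hormone response than in the interaction. These counts are not like for like. The interaction combines 4 group means and a response or level difference only 2, so its SE is larger (for AMD1 0.120, against 0.088 for the response in si-CBX3 and 0.084 in si-control). In si-CBX3 3842 genes rose (20.4%) and 3860 fell (20.5%) between 0 h and 6 h, and in si-control 3665 rose (19.5%) and 3405 fell (18.1%). Level differences between the siRNAs were called for still more genes. At 0 h 5283 genes were higher (28.1%) and 4894 lower (26%) in si-CBX3 than in si-control, and at 6 h 4652 were higher (24.7%) and 4592 lower (24.4%). The median interaction over all genes tested was -0.01.

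Most called genes had either responded in si-control and changed the size of their response, or responded under si-CBX3 alone. For 601 genes the response was weaker in si-CBX3 or not called there, 355 of them hormone-induced and 246 hormone-repressed in si-control. It was stronger for 411, of which 262 were induced and 149 repressed in si-control. Another 550 genes had a called response in si-CBX3 and none in si-control, and 126 had called responses of opposite sign, 53 of them induced and 73 repressed in si-control. In 2 genes neither response was called. The 2 responses share their libraries with the interaction, so this sorting is a description.

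**Figure D1:**
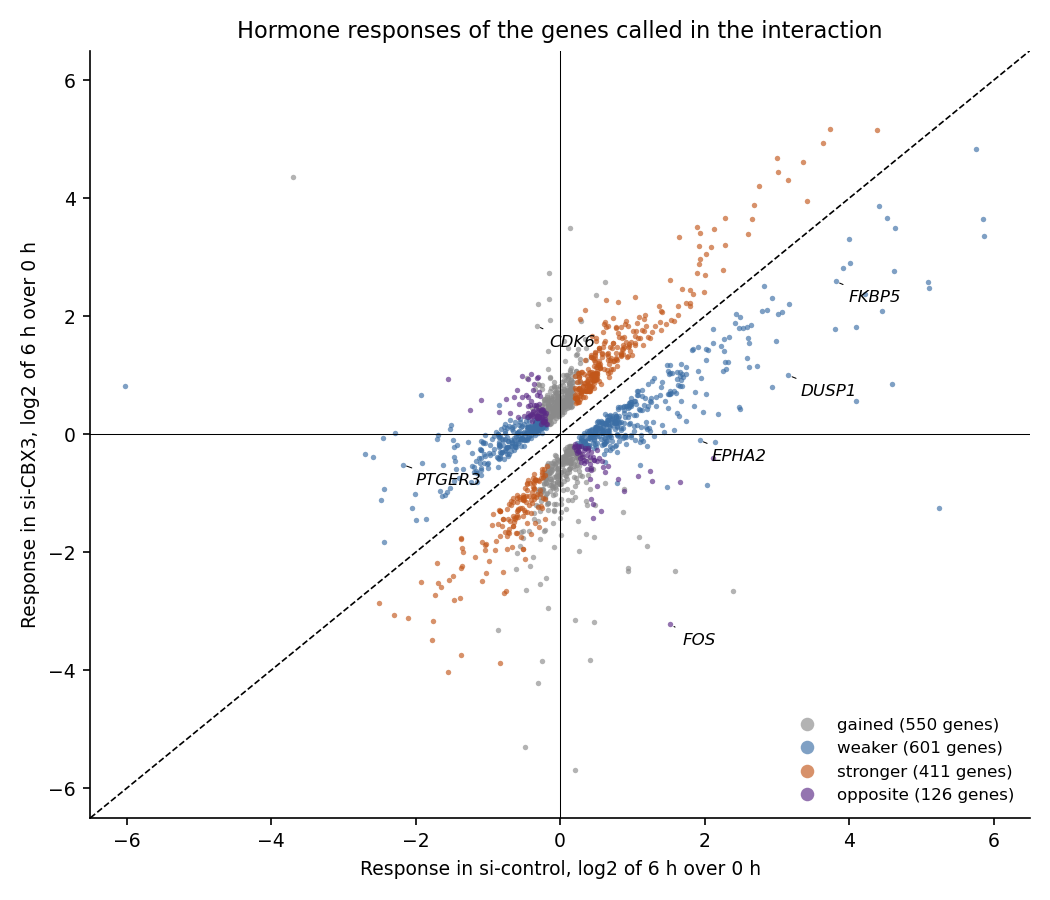
Response in si-CBX3 (vertical) against response in si-control (horizontal), each as log2 of 6 h over 0 h, for the genes called in the interaction; each point is 1 gene, colours give the kind of change, and the dashed line marks equal responses. FOS fell in si-CBX3 and rose in si-control, DUSP1 and FKBP5 lie below the dashed line among the weaker inductions, and 4 genes lie outside the axes.

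Which level moved was read from the size of the si-CBX3 minus si-control difference at each time. In 774 genes (45.8% of those called) the 0 h difference was called and at least 2 times as large on the log2 scale as the 6 h difference, so the siRNAs stood further apart before hormone than after it. In 435 genes (25.7%) the 6 h difference was called and at least 2 times as large as the 0 h difference, so they stood further apart after hormone. A further 160 genes (9.47%) had called differences of opposite sign at the 2 times, and 321 (19%) met none of these rules and form the partial class. The shares varied little when 1 library was left out, between 46.2% and 52.2% for the 0 h class and between 23.3% and 27.5% for the 6 h class. Of the 601 weaker responses, 152 with a lower and 97 with a higher interaction belonged to the 0 h class, and 96 and 81 to the 6 h class.

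**Figure D2:**
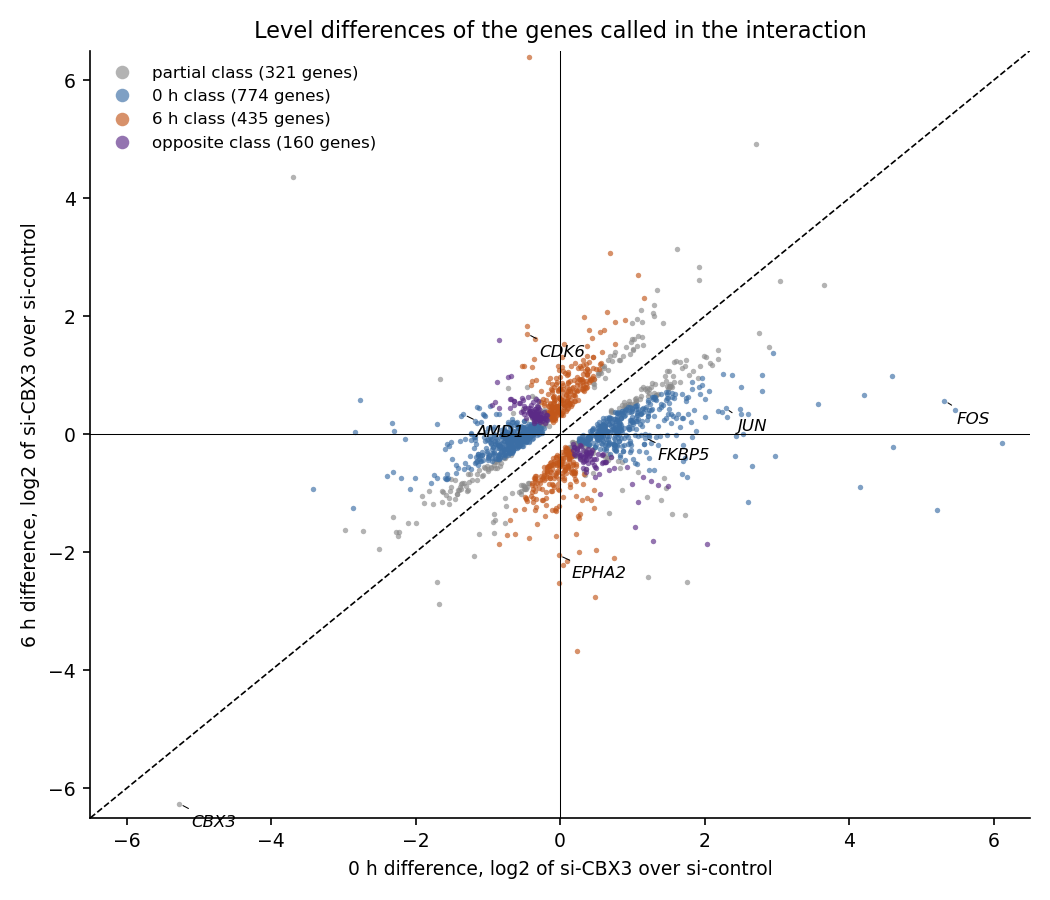
Difference between si-CBX3 and si-control at 0 h (horizontal) and at 6 h (vertical), log2, for the genes called in the interaction; each point is 1 gene, colours give the level class, and the distance from the dashed line is the interaction. The 774 genes of the 0 h class spread along the horizontal axis, the 435 of the 6 h class along the vertical axis, and 2 genes lie outside the axes.

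Immediate-early genes held most of their difference at 0 h. Of 32 tested members of the list, 22 (68.8%) had a lower response in si-CBX3 and 1 a higher one, against 4.36% and 4.63% of all genes tested, and the list's median interaction was -1.25. At 0 h 26 of the 32 were higher in si-CBX3 than in si-control and 3 lower, with a median difference of 1.55, and at 6 h 9 were higher and 9 lower, with a median of 0.11. Between the 2 times 7 rose and 20 fell in si-CBX3, while 20 rose and 3 fell in si-control. Of the 22, 19 belonged to the 0 h class. Leaving out 1 library at a time left 19 to 22 lower calls in the list.

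FOS, the AP-1 subunit whose transcript is made and lost within minutes of a stimulus, had 1.67 and 1.43 CPM at 6 h and 13.8 and 15.1 CPM at 0 h in si-CBX3, against 1.13 and 0.948 CPM at 6 h and 0.314 and 0.410 CPM at 0 h in si-control. The 2 si-CBX3 libraries at 0 h stood far above the other 6, which ran from 0.314 to 1.67 CPM. The 0 h difference was 39.9-fold (5.32 ± 0.17) and the 6 h difference 1.48-fold, so FOS fell 9.33-fold over 6 h in si-CBX3 and rose 2.88-fold in si-control. The interaction was -4.75 ± 0.27, adjusted p = 2.49e-08 in edgeR.

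DUSP1, a phosphatase that switches off MAP kinases and a known progestin and glucocorticoid target, had 76.6 and 76.0 CPM at 6 h and 37.9 and 38.4 CPM at 0 h in si-CBX3, against 99.1 and 111 CPM at 6 h and 12.1 and 11.4 CPM at 0 h in si-control. It rose in both siRNAs, from a 0 h level 3.25 times as high in si-CBX3, and ended below si-control at 6 h by a factor of 1.38. The response was 1.00 in si-CBX3 against 3.16 in si-control, and the interaction -2.16 ± 0.11, adjusted p = 2.49e-08 in edgeR.

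JUN, the AP-1 partner of FOS, had 102 and 99.9 CPM at 6 h and 196 and 198 CPM at 0 h in si-CBX3, against 66.4 and 82.5 CPM at 6 h and 42.6 and 37.9 CPM at 0 h in si-control. The 4 groups did not overlap, with si-CBX3 at 0 h highest and si-control at 0 h lowest. JUN fell 1.95-fold in si-CBX3 and rose 1.85-fold in si-control, an interaction of -1.85 ± 0.13, adjusted p = 2.79e-07 in edgeR. KLF6, a zinc finger factor of the same early wave, had 79.0 and 79.5 CPM at 6 h and 172 and 167 CPM at 0 h in si-CBX3, against 74.0 and 71.1 CPM at 6 h and 53.1 and 54.9 CPM at 0 h in si-control. Its 6 h levels differed by 0.13 on the log2 scale (adjusted p = 0.151 in edgeR), while the 0 h levels differed by 1.66.

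These 4 genes are shown with their promoters because 3 of them hold a cyclic AMP type element before the start site. Sequences are RefSeq promoters of GRCh38.p14, from 250 bases before to 50 after the gene's listed start, written 5′ to 3′ on the gene's strand. Capitals mark matches to TGACNTCA on either strand.
DUSP1: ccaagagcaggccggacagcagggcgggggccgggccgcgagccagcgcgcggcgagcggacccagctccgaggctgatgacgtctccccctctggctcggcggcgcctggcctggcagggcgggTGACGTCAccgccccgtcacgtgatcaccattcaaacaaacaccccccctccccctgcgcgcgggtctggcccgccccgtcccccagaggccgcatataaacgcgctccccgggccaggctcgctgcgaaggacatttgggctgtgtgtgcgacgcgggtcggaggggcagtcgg
JUN: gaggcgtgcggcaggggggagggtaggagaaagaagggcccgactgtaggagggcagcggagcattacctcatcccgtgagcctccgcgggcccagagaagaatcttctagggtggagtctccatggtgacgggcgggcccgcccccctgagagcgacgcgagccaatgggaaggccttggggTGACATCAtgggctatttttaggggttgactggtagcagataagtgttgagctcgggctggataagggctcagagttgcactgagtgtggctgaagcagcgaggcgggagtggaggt
KLF6: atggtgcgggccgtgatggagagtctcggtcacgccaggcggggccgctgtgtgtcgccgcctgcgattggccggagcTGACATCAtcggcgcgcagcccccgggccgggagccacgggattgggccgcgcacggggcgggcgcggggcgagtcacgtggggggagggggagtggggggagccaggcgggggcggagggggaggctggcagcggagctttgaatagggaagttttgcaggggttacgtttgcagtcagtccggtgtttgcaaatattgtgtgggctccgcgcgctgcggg
FOS: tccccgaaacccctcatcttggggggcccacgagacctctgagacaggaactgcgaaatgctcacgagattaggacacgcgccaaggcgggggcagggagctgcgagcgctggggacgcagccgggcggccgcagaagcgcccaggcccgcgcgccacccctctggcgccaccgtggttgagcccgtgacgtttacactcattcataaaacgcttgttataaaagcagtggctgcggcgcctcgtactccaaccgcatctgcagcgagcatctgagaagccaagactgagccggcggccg

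The DUSP1 promoter (chr5:172771146-172771445, minus strand) holds the element 125 bases before the start, that of JUN (chr1:58783998-58784297, minus strand) 67 bases before it and that of KLF6 (chr10:3785160-3785459, minus strand) 172 bases before it. The FOS window (chr14:75278578-75278877, plus strand) has no match to these letters. Of the 24 immediate-early members with a promoter in the table, 8 (33.3%) held a match, against 799 of 12441 tested genes (6.42%) and 2177 of 27305 promoters in all (7.97%). Among all called genes the share was 5.14% of 681 with a higher response and 8.69% of 633 with a lower one. A match is a description of the letters and no evidence of binding.

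Other members of the list were also higher in si-CBX3 than in si-control at 0 h. CCN1, a secreted matrix protein, had 58.2 and 61.2 CPM at 6 h and 104 and 103 CPM at 0 h in si-CBX3, against 35.8 and 36.2 CPM at 6 h and 15.8 and 14.0 CPM at 0 h in si-control. All 4 si-CBX3 libraries lay above all 4 of si-control. Its interaction was -2.06 ± 0.11, adjusted p = 2.49e-08 in edgeR. CCN2, its relative, had 0.146 and 0.116 CPM at 6 h and 5.74 and 4.71 CPM at 0 h in si-CBX3, against 0.113 and 0.190 CPM at 6 h and 0.204 and 0.222 CPM at 0 h in si-control. Only si-CBX3 at 0 h stood above 1 CPM, and the interaction was -4.82. EGR1, a zinc finger factor induced by ERK, had 0.523 and 0.405 CPM at 6 h and 7.67 and 5.96 CPM at 0 h in si-CBX3, against 0.378 and 0.266 CPM at 6 h and 0.565 and 0.581 CPM at 0 h in si-control. Its level fell over 6 h in both siRNAs. FOSB, another AP-1 subunit, had 1.76 and 1.43 CPM at 6 h and 23.6 and 22.2 CPM at 0 h in si-CBX3, against 0.491 and 1.10 CPM at 6 h and 0.957 and 0.940 CPM at 0 h in si-control. IER3, a stress-induced membrane protein, had 33.3 and 31.2 CPM at 6 h and 75.8 and 70.1 CPM at 0 h in si-CBX3, against 40.3 and 45.1 CPM at 6 h and 31.7 and 30.4 CPM at 0 h in si-control. It fell in si-CBX3 and rose in si-control (interaction -1.64). IER2, NR4A1, PHLDA1, ATF3 and MAFF were also called lower, at -1.35, -1.42, -1.01, -0.90 and -2.52 in that order.

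Not every member moved this way. DUSP2, a phosphatase of MAP kinases, had the one higher response (1.45), with a log2 difference of -2.19 between si-CBX3 and si-control at 0 h. The call was lost without the second si-CBX3 library at 0 h. JUNB, an AP-1 subunit, had 41.1 and 37.4 CPM at 6 h and 25.7 and 26.4 CPM at 0 h in si-CBX3, against 128 and 136 CPM at 6 h and 57.1 and 58.8 CPM at 0 h in si-control. It stood below si-control at both times, and its interaction of -0.60 was not called (adjusted p = 0.0526 in edgeR). MCL1, an inhibitor of apoptosis, was likewise below si-control at both times, with an interaction of -0.07.

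**Figure D3:**
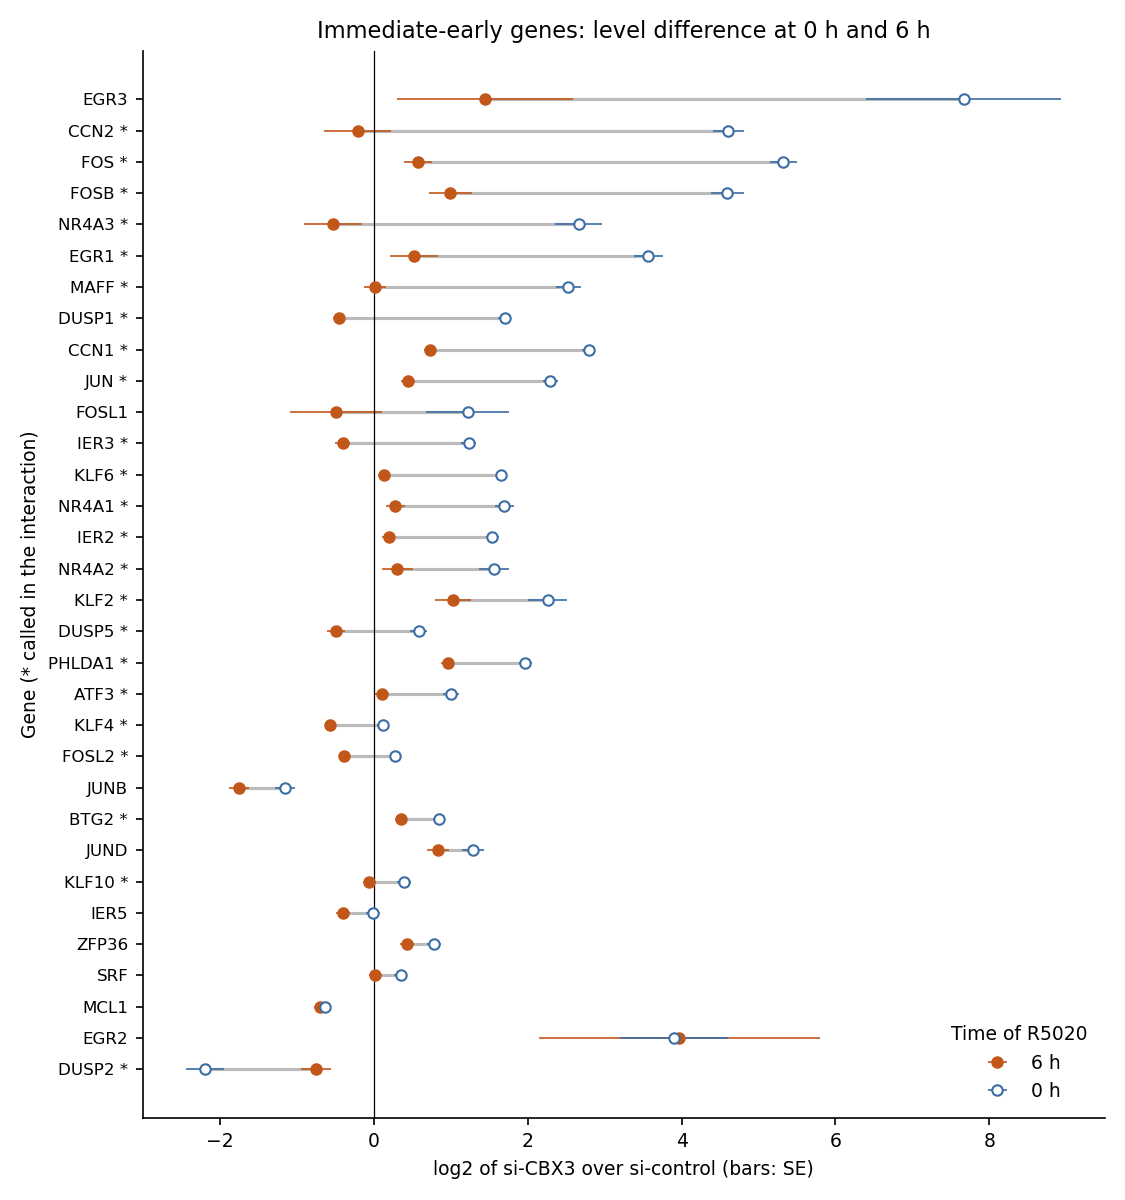
Difference between si-CBX3 and si-control (log2, horizontal; bars are SE) at 6 h (filled) and 0 h (open) for the 32 tested immediate-early genes, ordered by their interaction; an asterisk marks the genes called. Most open points lie to the right of zero and of the filled point of their gene, as for FOS with 0.57 at 6 h and 5.32 at 0 h, and DUSP2 lies the other way round.

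The response in si-CBX3 was also set against the responses in the other knockdowns, in comparisons added after the data had been seen and in which no si-control library enters. The response in si-CBX3 was higher than that in si-BRG1 for 488 genes (2.59%) and lower for 694 (3.69%), and higher than that in si-FOXA1 for 2772 (14.7%) and lower for 2461 (13.1%). Of the 32 immediate-early genes, 1 was higher and 19 lower against si-BRG1, and 3 higher and 17 lower against si-FOXA1. Over 6 h 13 of them rose and 4 fell in si-BRG1, and 11 rose and 13 fell in si-FOXA1. Their median response was -0.71 in si-CBX3, 0.16 in si-BRG1, -0.03 in si-FOXA1 and 0.61 in si-control. Medians below that of si-control were thus found in all 3 knockdowns, lowest in si-CBX3. For FOS the responses were -3.22 in si-CBX3, 0.97 in si-BRG1 and 0.78 in si-FOXA1, and both differences were called (adjusted p = 2.39e-08 and 1.68e-09 in edgeR). DUSP1 differed from si-BRG1 (response 3.20), while against si-FOXA1 (response 0.93) the difference was 0.07, adjusted p = 0.701 in edgeR. Among the other genes described with a called interaction, ANGPTL4, TSC22D3, EPHA2, ACOT6, PFKFB4, PFKP and TP53INP1 had no called difference from either knockdown. CCN2 fell over 6 h in si-FOXA1 as well (-4.70, against -5.30 in si-CBX3).

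Genes that report or restrain ERK signalling showed lower responses too. Of 18 tested members of the list 10 (55.6%) were called lower and none higher, with a median interaction of -0.97. The list shares EGR1, IER3, DUSP5, FOSL1 and PHLDA1 with the immediate-early list. DUSP6, the phosphatase of ERK itself and a standard readout of its activity, had 1.09 and 1.00 CPM at 6 h and 16.6 and 17.4 CPM at 0 h in si-CBX3, against 1.00 and 1.14 CPM at 6 h and 3.06 and 3.25 CPM at 0 h in si-control. The si-CBX3 libraries were 5.39 times si-control at 0 h and had no called difference at 6 h, so that DUSP6 fell by 4.02 in si-CBX3 and by 1.56 in si-control on the log2 scale (interaction -2.47 ± 0.24, adjusted p = 7.41e-06, edgeR). ERRFI1, an inhibitor of the EGF receptor, had 94.3 and 97.5 CPM at 6 h and 60.2 and 58.6 CPM at 0 h in si-CBX3, against 137 and 149 CPM at 6 h and 36.2 and 34.3 CPM at 0 h in si-control. It stood below si-control at 6 h and above it at 0 h. SPRY1 and SPRED2, inhibitors of the RAS to ERK pathway, had interactions of -0.93 and -0.75.

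EPHA2, a receptor tyrosine kinase on the same list, differed in the other way. It had 1.4 and 1.37 CPM at 6 h and 1.44 and 1.53 CPM at 0 h in si-CBX3, against 5.02 and 6.45 CPM at 6 h and 1.58 and 1.42 CPM at 0 h in si-control. All 4 si-CBX3 libraries and the 2 si-control libraries at 0 h lay between 1.37 and 1.58 CPM, and only si-control at 6 h stood apart. The 0 h difference was -0.02 and the 6 h difference -2.05, and the interaction was -2.03 ± 0.22, adjusted p = 2.86e-05 in edgeR. The responses in si-BRG1 and si-FOXA1 were 0.07 and 0.18, neither of which differed by call from that in si-CBX3, while the response in si-control was 1.93.

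**Figure D4:**
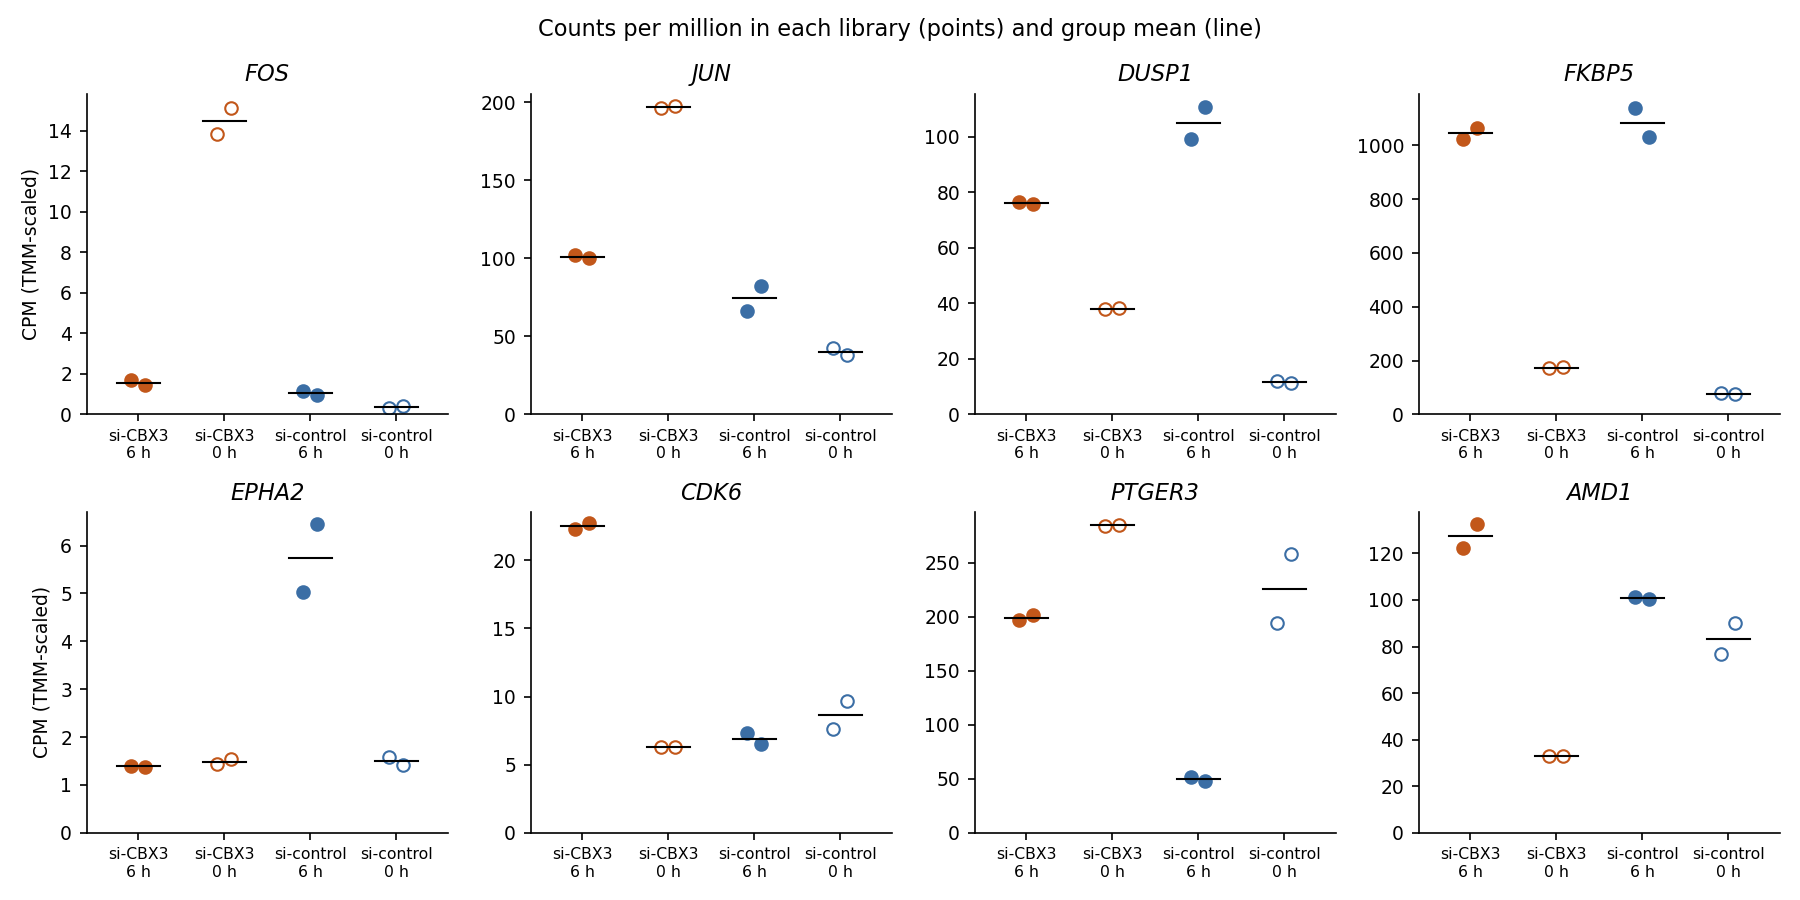
CPM in each library (points) with the group mean (line) for 8 genes; si-CBX3 libraries are orange and si-control libraries blue, filled at 6 h and open at 0 h. On the log2 scale FOS, JUN, DUSP1 and FKBP5 differ most at 0 h and EPHA2, CDK6 and PTGER3 at 6 h, while the axes show CPM itself. AMD1 starts low in si-CBX3 and ends above si-control.

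Progestin- and glucocorticoid-induced genes had smaller responses under si-CBX3 in part of the list. In each siRNA 23 of 31 tested members rose and 2 fell between 0 h and 6 h, with a median response of 1.83 in si-CBX3 and 2.05 in si-control. The response was lower in si-CBX3 for 10 members (32.3%) and higher for 2 (6.45%), with a median interaction of -0.42. A smaller median than in si-control was not particular to si-CBX3: it was 1.76 in si-BRG1 and 1.28 in si-FOXA1. Against si-BRG1 the response in si-CBX3 was higher for 1 member and lower for 8, and against si-FOXA1 higher for 12 and lower for 6. Of the 10 members with a lower response than in si-control, 4 belonged to the 0 h class and 5 to the 6 h class.

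FKBP5, a co-chaperone of steroid receptors and a well-known progestin target, had 1025 and 1064 CPM at 6 h and 171 and 176 CPM at 0 h in si-CBX3, against 1140 and 1030 CPM at 6 h and 79.3 and 74.8 CPM at 0 h in si-control. The groups overlapped at 6 h and not at 0 h, where si-CBX3 was 2.25 times si-control. It thus rose 6.02-fold in si-CBX3 and 14.1-fold in si-control (interaction -1.23 ± 0.10, adjusted p = 6.52e-07, edgeR). PDK4, a kinase that restrains pyruvate oxidation, had 16.9 and 16.9 CPM at 6 h and 4.79 and 4.78 CPM at 0 h in si-CBX3, against 16.4 and 17.1 CPM at 6 h and 2.6 and 2.94 CPM at 0 h in si-control. There was a called difference at 0 h (0.79) and none at 6 h (0.02).

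KLF9, a zinc finger factor induced by steroid hormones, parted at 6 h instead. It had 16.3 and 15.7 CPM at 6 h and 14.1 and 13.6 CPM at 0 h in si-CBX3, against 30.9 and 26.6 CPM at 6 h and 12.3 and 13.0 CPM at 0 h in si-control. The response was 0.21 in si-CBX3 against 1.18 in si-control. SLC2A1, the glucose transporter GLUT1, had 142 and 131 CPM at 6 h and 51.4 and 49.9 CPM at 0 h in si-CBX3, against 229.7 and 211 CPM at 6 h and 52.0 and 54.3 CPM at 0 h in si-control. There was no called difference at 0 h and a lower level in si-CBX3 at 6 h (interaction -0.62). ANGPTL4, a secreted inhibitor of lipoprotein lipase, fell in both siRNAs and fell further in si-CBX3 (-2.12 in si-CBX3 against -0.48 in si-control). It fell by 1.76 in si-BRG1 and by 1.91 in si-FOXA1, with no called difference of either from si-CBX3.

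TSC22D3, or GILZ, a glucocorticoid-induced leucine zipper protein, went the other way. It had 230.3 and 218 CPM at 6 h and 62.2 and 63.9 CPM at 0 h in si-CBX3, against 155 and 168 CPM at 6 h and 67.0 and 63.2 CPM at 0 h in si-control. There was no called 0 h difference, and the interaction was 0.52 ± 0.10, adjusted p = 0.0029 in edgeR. Its responses in si-BRG1 (1.76) and si-FOXA1 (1.84) did not differ by call from that in si-CBX3. SGK1, a kinase strongly induced by steroids, had 20.3 and 22.2 CPM at 6 h and 0.416 and 0.383 CPM at 0 h in si-CBX3, against 32.4 and 30.1 CPM at 6 h and 0.580 and 0.410 CPM at 0 h in si-control. Its response was 5.73 in si-CBX3 against 5.96 in si-control, and the interaction of -0.24 (95% interval -0.93 to 0.46, adjusted p = 0.71 in edgeR) was not called.

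The receptor genes themselves were repressed by hormone in both siRNAs. PGR, the progesterone receptor, had 223 and 221 CPM at 6 h and 873 and 700.4 CPM at 0 h in si-CBX3, against 84.4 and 110.1 CPM at 6 h and 473 and 571 CPM at 0 h in si-control. All 4 si-CBX3 libraries exceeded the si-control libraries of the same time, and the interaction of 0.60 was just outside the threshold (95% interval 0.15 to 1.04, adjusted p = 0.0637 in edgeR). PGR was called when only the 8 libraries were fitted (adjusted p = 0.0415 in edgeR) and by DESeq2 (adjusted p = 0.0208). ESR1, the oestrogen receptor, had 75.0 and 76.8 CPM at 6 h and 211 and 209 CPM at 0 h in si-CBX3, against 92.1 and 91.0 CPM at 6 h and 211 and 221 CPM at 0 h in si-control. Its interaction of -0.23 was not called, adjusted p = 0.111 in edgeR.

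Among 25 tested oestrogen receptor targets 6 (24%) had a higher response in si-CBX3 and 2 (8%) a lower one. IGFBP4, an insulin-like growth factor binding protein, had 224 and 209.6 CPM at 6 h and 258 and 256 CPM at 0 h in si-CBX3, against 85.1 and 89.1 CPM at 6 h and 186 and 188 CPM at 0 h in si-control. It fell in both siRNAs, with a response of -0.24 in si-CBX3 against -1.10 in si-control. STC2, a secreted glycoprotein, had 57.9 and 56.2 CPM at 6 h and 41.9 and 47.1 CPM at 0 h in si-CBX3, against 87.5 and 97.4 CPM at 6 h and 142 and 156 CPM at 0 h in si-control. It rose in si-CBX3 and fell in si-control. CXCL12, a chemokine, had 68.5 and 66.5 CPM at 6 h and 37.6 and 37.4 CPM at 0 h in si-CBX3, against 44.9 and 46.2 CPM at 6 h and 56.5 and 60.5 CPM at 0 h in si-control. Its si-CBX3 libraries lay above si-control at 6 h and below it at 0 h. The 2 lower calls were FOS and CA12, a carbonic anhydrase (-0.41).

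Several other regulators shared the 0 h rise under si-CBX3. HES1, a repressor downstream of Notch, had 25.4 and 22.8 CPM at 6 h and 90.6 and 89.6 CPM at 0 h in si-CBX3, against 24.9 and 21.3 CPM at 6 h and 24.6 and 24.2 CPM at 0 h in si-control. The other 6 libraries lay between 21.3 and 25.4 CPM, and its interaction was -1.82 ± 0.12, adjusted p = 1.34e-07 in edgeR. BHLHE40, a basic helix-loop-helix repressor of the clock, had 169 and 168 CPM at 6 h and 455 and 450.2 CPM at 0 h in si-CBX3, against 196 and 154 CPM at 6 h and 137 and 117 CPM at 0 h in si-control. RND3, a small GTPase that loosens the actin skeleton, had 13.2 and 14.6 CPM at 6 h and 33.9 and 34.8 CPM at 0 h in si-CBX3, against 14.5 and 16.8 CPM at 6 h and 10.7 and 10.5 CPM at 0 h in si-control. Both fell in si-CBX3 and rose in si-control. RASD2, a small GTPase, and UST, a sulfotransferase, were induced in both siRNAs, with responses of 0.46 in si-CBX3 against 2.48 in si-control and of 0.38 in si-CBX3 against 1.98 in si-control. SIK1, a salt-inducible kinase, had 9.47 and 9.60 CPM at 6 h and 7.06 and 7.98 CPM at 0 h in si-CBX3, against 16.4 and 17.8 CPM at 6 h and 3.94 and 3.57 CPM at 0 h in si-control. This gene too was below si-control at 6 h and above it at 0 h.

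Genes of the opposite direction in the 0 h class began lower in si-CBX3. AMD1, the S-adenosylmethionine decarboxylase of polyamine synthesis, had 122 and 133 CPM at 6 h and 32.8 and 33.2 CPM at 0 h in si-CBX3, against 101 and 100.3 CPM at 6 h and 76.9 and 90.0 CPM at 0 h in si-control. It rose 3.86-fold in si-CBX3 and 1.21-fold in si-control (interaction 1.68 ± 0.12, adjusted p = 2.79e-07, edgeR). GJB2, the gap junction protein connexin 26, had 16.3 and 16.2 CPM at 6 h and 0.727 and 0.530 CPM at 0 h in si-CBX3, against 13.5 and 12.7 CPM at 6 h and 1.51 and 1.76 CPM at 0 h in si-control. CDK5R1, an activator of the kinase CDK5, had 22.7 and 21.6 CPM at 6 h and 2.02 and 1.87 CPM at 0 h in si-CBX3, against 15.4 and 16.7 CPM at 6 h and 3.79 and 4.85 CPM at 0 h in si-control. FAM107B had 603 and 617 CPM at 6 h and 54.2 and 55.2 CPM at 0 h in si-CBX3, against 722 and 720.3 CPM at 6 h and 155 and 176 CPM at 0 h in si-control. Its level was lower in si-CBX3 at both times. In all 3 the rise was larger in si-CBX3, with interactions of 1.68, 1.61 and 1.35. ACOT6, an acyl-CoA thioesterase, and TENT5A, a poly(A) polymerase, also began lower and had interactions of 1.44 and 1.38.

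CDK6, the G1 kinase that partners D cyclins, had the highest interaction among called genes with a mean log2 CPM of at least 3 and belonged to the 6 h class. It had 22.3 and 22.7 CPM at 6 h and 6.26 and 6.33 CPM at 0 h in si-CBX3, against 7.31 and 6.5 CPM at 6 h and 7.64 and 9.69 CPM at 0 h in si-control. The si-CBX3 libraries at 6 h stood alone above the other 6. CDK6 rose 3.58-fold in si-CBX3 and had no called response in si-control (-0.33), an interaction of 2.16 ± 0.18, adjusted p = 1.75e-06 in edgeR. PDE5A, a cGMP phosphodiesterase, had 25.0 and 26.6 CPM at 6 h and 2.54 and 2.33 CPM at 0 h in si-CBX3, against 8.80 and 9.08 CPM at 6 h and 2.45 and 2.22 CPM at 0 h in si-control. It had no called 0 h difference, and its response was 3.41 in si-CBX3 against 1.94 in si-control.

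PTGER3, a prostaglandin E2 receptor, was repressed in both siRNAs and less so in si-CBX3. It had 196 and 202 CPM at 6 h and 284 and 285 CPM at 0 h in si-CBX3, against 52.0 and 47.8 CPM at 6 h and 194 and 258 CPM at 0 h in si-control. The 0 h difference was 0.33, the 6 h difference 2.00 and the interaction 1.66 ± 0.15, adjusted p = 2.81e-06 in edgeR. SSTR2, a somatostatin receptor, had 5.60 and 5.36 CPM at 6 h and 11.3 and 12.4 CPM at 0 h in si-CBX3, against 1.62 and 1.57 CPM at 6 h and 9.46 and 8.46 CPM at 0 h in si-control. Its repression was weaker in si-CBX3, with an interaction of 1.37. ID3, an inhibitor of basic helix-loop-helix factors, had 8.13 and 7.81 CPM at 6 h and 21.4 and 22.6 CPM at 0 h in si-CBX3, against 19.9 and 17.8 CPM at 6 h and 16.1 and 15.7 CPM at 0 h in si-control. It fell in si-CBX3 and had no called response in si-control. TCF7L1, a transcription factor of the Wnt pathway, had 43.9 and 43.0 CPM at 6 h and 22.7 and 21.1 CPM at 0 h in si-CBX3, against 4.38 and 5.52 CPM at 6 h and 7.73 and 6.46 CPM at 0 h in si-control. It was higher in si-CBX3 at both times, and more so at 6 h.

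Several genes crossed over, with differences of opposite sign at the 2 times. LRR1, a substrate adaptor of a ubiquitin ligase, had 53.3 and 54.2 CPM at 6 h and 12.6 and 12.3 CPM at 0 h in si-CBX3, against 28.3 and 29.7 CPM at 6 h and 21.5 and 24.2 CPM at 0 h in si-control. MGAT4A, a glycosyltransferase, had 33.8 and 34.7 CPM at 6 h and 26.0 and 25.4 CPM at 0 h in si-CBX3, against 17.9 and 16.8 CPM at 6 h and 39.0 and 43.5 CPM at 0 h in si-control. The first rose in both siRNAs and the second rose in si-CBX3 and fell in si-control, with interactions of 1.76 and 1.67. JAG1, a Notch ligand, had 11.6 and 11.8 CPM at 6 h and 1.10 and 1.21 CPM at 0 h in si-CBX3, against 6.18 and 5.73 CPM at 6 h and 2.10 and 1.69 CPM at 0 h in si-control. SLC7A11, the cystine transporter, had 29.2 and 31.4 CPM at 6 h and 9.57 and 9.61 CPM at 0 h in si-CBX3, against 18.6 and 22.2 CPM at 6 h and 13.5 and 16.5 CPM at 0 h in si-control. Both were induced further in si-CBX3, with interactions of 1.69 and 1.21. TFCP2L1 had an interaction of 1.45, and its level was above si-control at 6 h and below it at 0 h.

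Some large interactions rest on groups whose libraries differed from each other. CENPE, a kinetochore motor, had 0.146 and 0.752 CPM at 6 h and 3.29 and 5.87 CPM at 0 h in si-CBX3, against 2.04 and 1.54 CPM at 6 h and 3.86 and 2.63 CPM at 0 h in si-control. GOLGA4, a long Golgi coiled-coil protein, had 36.7 and 58.1 CPM at 6 h and 161 and 241 CPM at 0 h in si-CBX3, against 74.4 and 73.2 CPM at 6 h and 108 and 82.9 CPM at 0 h in si-control. ANKRD12, an ankyrin repeat co-regulator, had 2.47 and 4.22 CPM at 6 h and 12.8 and 19.9 CPM at 0 h in si-CBX3, against 11.3 and 10.9 CPM at 6 h and 19.3 and 14.6 CPM at 0 h in si-control. In each the second si-CBX3 library was above the first at both times. Their interactions were -2.45 ± 0.64, -1.71 ± 0.37 and -1.66 ± 0.38. For CENPE the value ran from -4.09 without the second si-CBX3 library at 6 h to -1.70 without the first, and the call was lost without the first si-CBX3 library at 6 h, the second at 0 h, the first si-control library at 6 h and the second si-control library at 0 h. ANKRD12 lost its call without the first si-CBX3 library at 6 h (-1.30), the second at 0 h and the second si-control library at 0 h, and GOLGA4 without the first si-CBX3 library at 6 h (-1.38) and the second si-control library at 0 h.

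Genes of glycolysis and hypoxia had 6 lower and 2 higher responses among 23 tested (26.1% and 8.7%). With 1 library left out 4 to 6 were lower and 0 to 2 higher. The higher count was 0 without either si-CBX3 library at 6 h, the second at 0 h or either si-control library at 6 h. HK2, a hexokinase, had 68.8 and 70.9 CPM at 6 h and 40.2 and 38.3 CPM at 0 h in si-CBX3, against 138 and 121 CPM at 6 h and 43.9 and 39.6 CPM at 0 h in si-control. PFKFB4, which makes an activator of glycolysis, had 35.6 and 34.1 CPM at 6 h and 33.6 and 33.2 CPM at 0 h in si-CBX3, against 62.1 and 54.0 CPM at 6 h and 36.6 and 36.7 CPM at 0 h in si-control. Neither differed by call at 0 h and both were lower in si-CBX3 at 6 h, with interactions of -0.80 and -0.60. PFKP, a phosphofructokinase, was lower in si-CBX3 at both times and had no called response there (0.05 in si-CBX3 against 0.60 in si-control). Of the later enzymes of the pathway, GAPDH, ENO1, PGK1 and LDHA had interactions between 0.04 and 0.07, with no call in edgeR.

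Cell cycle genes had called level differences far more often than called interactions, which have the larger SE. Of 28 G2/M genes 25 were lower in si-CBX3 at 0 h and 27 at 6 h, with median differences of -1.57 and -1.48. In the interaction 5 were called higher (17.9%) and 1 lower (3.57%), against 4.63% and 4.36% of all genes tested. CDC20, an activator of the anaphase-promoting complex, had 17.7 and 17.9 CPM at 6 h and 8.38 and 9.57 CPM at 0 h in si-CBX3, against 53.1 and 58.5 CPM at 6 h and 42.5 and 44.0 CPM at 0 h in si-control. Its interaction was 0.62, and that of KIF20A, a mitotic kinesin, 0.60. With 1 library left out 2 to 6 members were called higher, 2 of them without the second si-CBX3 library at 6 h, the first at 0 h or the first si-control library at 6 h. Of 27 G1/S genes 26 were lower at 0 h and 27 at 6 h, and 2 were higher (7.41%) and 3 lower (11.1%) in the interaction. With 1 library left out 0 to 3 were higher and 1 to 2 lower, the lower count being 1 in all cases but that without the first si-control library at 6 h. E2F2, an activating E2F, had 3.30 and 3.66 CPM at 6 h and 5.03 and 5.48 CPM at 0 h in si-CBX3, against 11.2 and 11.4 CPM at 6 h and 8.81 and 8.73 CPM at 0 h in si-control. It fell in si-CBX3 and rose in si-control (interaction -0.96).

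Interferon-stimulated genes, 31 of 35 lower in si-CBX3 at 0 h and 28 at 6 h, had 2 higher (5.71%) and 0 lower interaction calls in edgeR. Over all genes tested 4.63% were higher and 4.36% lower. Their summed level was 2480 and 2402 CPM at 6 h and 1953 and 2587 CPM at 0 h in si-CBX3, against 4843 and 4432 CPM at 6 h and 7395 and 3716 CPM at 0 h in si-control. The 2 si-control libraries at 0 h stood apart from each other. Without a filter on low counts 12 members were called higher. Without the second of these si-control libraries 15 members were called higher, without the first 0 were, and 0 were without the second si-CBX3 library at 6 h, the first at 0 h or the first si-control library at 6 h.

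Of 20 p53 targets 5 had a higher and 5 a lower response (25% each, against 4.63% and 4.36% of all genes tested). MDM2, the ubiquitin ligase of p53, had 208 and 214 CPM at 6 h and 159 and 158 CPM at 0 h in si-CBX3, against 208 and 203 CPM at 6 h and 240.1 and 266 CPM at 0 h in si-control. TP53INP1, a p53-induced nuclear protein, had 97.0 and 105 CPM at 6 h and 85.5 and 79.6 CPM at 0 h in si-CBX3, against 111 and 102 CPM at 6 h and 148 and 171 CPM at 0 h in si-control. Both began lower in si-CBX3, rose there and fell in si-control, with interactions of 0.71 and 0.88. With 1 library left out 1 to 5 members were called lower, 1 without the first si-CBX3 library at 6 h or the second at 0 h and 2 without the second at 6 h. Among 23 cholesterol genes 3 were higher (13%) and 1 lower (4.35%). When only the 8 libraries were fitted 8 were higher and 2 lower, where 2324 of 18806 genes were called in all. HSPA1A and HSPA1B, inducible HSP70 genes, rose further in si-CBX3 (0.51 and 0.71). Reads of these near-identical genes cannot be assigned with certainty and the HSPA1A call was lost without the second si-CBX3 library at 0 h. Chromatin genes included SUV39H2, an H3K9 methyltransferase (0.76), and LBR, a lamin B receptor that binds HP1 (0.80). Among 24 HP1, H3K9 and co-repressor genes 3 were higher (12.5%) and 4 lower (16.7%), CBX3 among the lower. The lower count was 6 without the first si-control library at 0 h and 2 without any other single library.

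**Figure D5:**
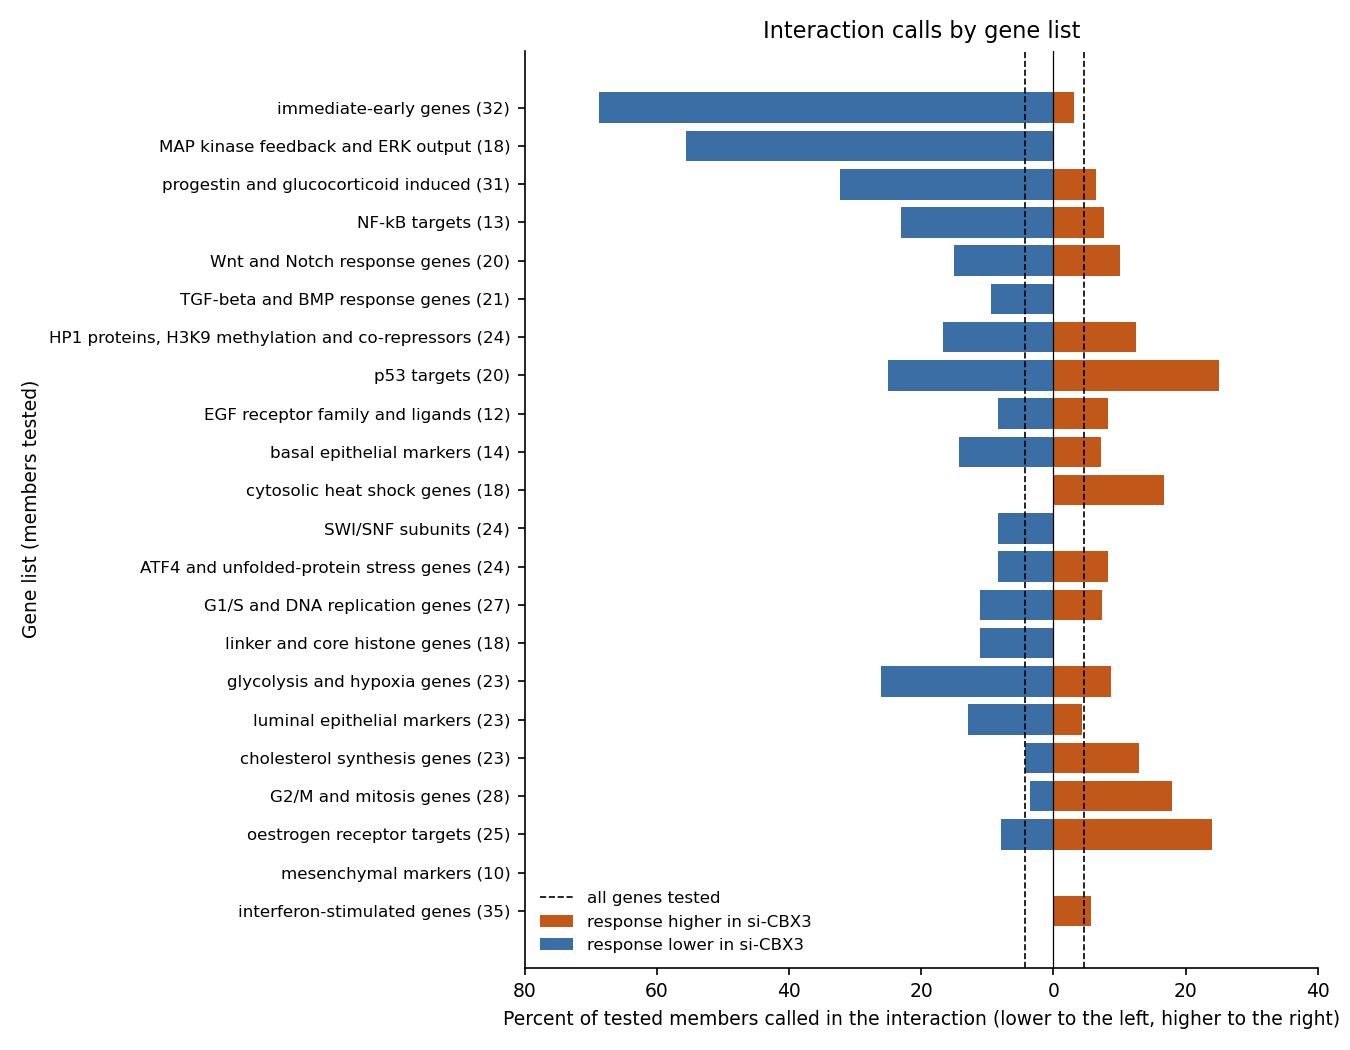
Percent of each gene list's tested members called in the interaction, with a higher response in si-CBX3 to the right and a lower response to the left; numbers in brackets are the members tested, lists with fewer than 10 are left out, and dashed lines mark the 4.63% and 4.36% of all genes tested. The immediate-early list reaches 68.8% lower and the ERK list 55.6%, and the mesenchymal list has no call.

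Markers of the line and of other cells were read beside these lists. All 23 luminal epithelial markers were tested, with 1 higher and 3 lower interaction calls (4.35% and 13%, against 4.63% and 4.36% of all genes tested). Without the first si-CBX3 library at 0 h 3 were higher. KRT19, a luminal keratin, had 2879 and 2746 CPM at 6 h and 3673 and 3641 CPM at 0 h in si-CBX3, against 4065 and 4242 CPM at 6 h and 3369 and 3392 CPM at 0 h in si-control. ELF3, an epithelial factor, had 64.1 and 54.8 CPM at 6 h and 125 and 128 CPM at 0 h in si-CBX3, against 78.4 and 71.0 CPM at 6 h and 88.5 and 87.2 CPM at 0 h in si-control. Of basal markers 14 of 18 were tested, with 1 higher and 2 lower calls (7.14% and 14.3%), and the lower count fell with 1 library left out. No mesenchymal (10 of 17 tested), leukocyte (6 of 13) or endothelial marker (4 of 8) was called in edgeR.

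To describe the response of hormone genes without choosing them on si-control, responders were taken from the si-BRG1 and si-FOXA1 libraries, as genes called with a change of 2-fold or more in the same direction in both. The 570 induced genes had median responses of 2.01 in si-CBX3 and 2.02 in si-control, and 58 were called higher (10.2%) and 55 lower (9.65%). For this set and those below, the shares over all genes tested were 4.63% higher and 4.36% lower. Without the first si-CBX3 library at 6 h 51 were higher and 35 lower, and without the second si-control library at 0 h 54 were higher and 36 lower. The 244 repressed genes had medians of -1.49 in si-CBX3 and -1.29 in si-control, and 2 were called higher (0.82%) and 37 lower (15.2%), a lower call meaning deeper repression. Of the 37, 21 belonged to the 0 h class; without the first si-CBX3 library at 6 h 24 were called. Repressed genes taken instead from the 2 libraries without siRNA, an alternative added after the data had been seen, gave 20 higher (6.02%) and 30 lower (9.04%) of 332, with medians of -0.47 in si-CBX3 and -0.45 in si-control. The split between higher and lower calls thus depended on how the repressed genes were chosen.

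The 2 libraries without siRNA, 1 at 6 h and 1 at 0 h, give another reading of the unperturbed response. Of 1062 genes called in the interaction and in the si-control response that had a value there, 854 (80.4%) moved in the direction of si-control. The share over all genes called in the si-control response is not given here, so this value is not particular to the interaction genes. With 1 library per time there is no test. On the scale of log2(RPKM + 1) the 6 h over 0 h ratio was 1.64 for DUSP1, 3.04 for FKBP5, 0.27 for JUN, 1.14 for CCN1 and -1.18 for PTGER3, each with the sign of si-control. DUSP1, FKBP5 and PTGER3 had that sign in si-CBX3 as well. For FOS it was -0.08 and for EPHA2 -0.17, the opposite sign to si-control, which rose. The added 1 shrinks changes of low genes but cannot reverse their sign.

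BRG1, the ATPase of the SWI/SNF remodeller, had been mapped by ChIP-seq at 30 min of R5020, in 1 library. Among genes with a mean log2 CPM of at least 3, a 30 min peak lay within 5 kb of the 5′ end for 157 of 739 genes with a higher response (21.2%), for 120 of 614 with a lower response (19.5%), and for 1352 of all 9997 (13.5%). These shares were not tested, and median exonic length was 6001, 5386 and 5051 bases in the 3 sets. In hg19 coordinates the peak at DUSP1 spans chr5:172197113-172198899 and that at FKBP5 chr6:35693131-35696411, both over the gene's 5′ end, at scores of 100.28 and 184.28 as deposited by the authors. KLF6 (chr10:3824103-3828621), BHLHE40 (chr3:5018499-5023061) and SIK1 (chr21:44845752-44847101) also had a peak over the 5′ end, and CCN1 one at 478 bases from it. JUN, CDK6 and PTGER3 had no listed peak within this distance.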

How the data were processed

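RNA-seq of T47D cells was analysed from gene-level counts deposited by the authors. Per the file headers, the counts are whole fragments per gene assigned with featureCounts 1.4.6-p2 and are not normalised; STAR, Trimmomatic and HOMER are named without roles or versions in the submitters' processing notes, with Bowtie 1.0.0. The authors also deposited estimated read numbers with RPKM for the 2 libraries without siRNA, and BRG1 peak lists with a score per peak in hg19 coordinates.

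The 16 siRNA libraries (8 groups of 2) were fitted together with edgeR 4.0.16 in R 4.3.3 (filterByExpr, TMM, quasi-likelihood, 8 residual degrees of freedom). This left 18806 of 57820 genes, and 96.3% of those tested had a symbol. The interaction and the level differences are contrasts of this fit, with Benjamini-Hochberg adjustment over all genes tested and calls at 0.05. CPM use TMM-scaled library sizes, and SE is the log2 value over the root of the F statistic. No 2 libraries of a group were duplicates (chi-square per degree of freedom 4.62 to 25.6 in the si-CBX3 and si-control groups). In the si-BRG1 and si-FOXA1 groups it ran from 3.94 (si-FOXA1 at 0 h) to 51.8 (si-BRG1 at 6 h). The fit was also run on counts simulated with its own dispersions, with the outcome not given here. Those counts were drawn independently for each gene and library, so they cannot speak to deviations that many genes of a library share.

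Named genes were 9 always shown, the 15 largest called interactions in each direction with a mean log2 CPM of at least 3 and separated responses, the 8 largest of the 0 h and of the 6 h class, and up to 4 members of each list with the lowest p. Others in the text were chosen after their values were seen. The members and the 24 lists were chosen with earlier results of these data known. Alternatives were other scalings, filters and tools, the replicate block, fewer libraries, and each library left out. The 2 libraries without siRNA and the ChIP-seq samples entered no test. A few genes are not reported here.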

Additional observations from a re-analysis of the deposited data

Results flagged for a closer look

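The response to hormone differed between si-CBX3 and si-control for 1690 genes by the test of the difference itself. Among the genes chosen by the naming rule and reported here, 12 had called responses of opposite sign in the 2 siRNAs with a difference of 2-fold or more. 7 fell over 6 h in si-CBX3 and rose in si-control: the log2 difference of responses was -4.748 for FOS, -2.061 for CCN1, -1.884 for BHLHE40, -1.877 for RND3, -1.849 for JUN, -1.639 for IER3 and -1.528 for KLF6. All 7 stood higher in si-CBX3 at 0 h. The other 5 rose in si-CBX3 and fell in si-control, with differences of 1.044 for STC2, 1.208 for CXCL12, 1.381 for TENT5A, 1.512 for TCF7L1 and 1.666 for MGAT4A. TCF7L1 was the one of these with a higher 0 h level in si-CBX3. Groups of 2 libraries are too small for a test of single outlying libraries.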

How the results depend on the processing

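None of the up to 92 called genes chosen by the naming rule changed direction under the alternatives run. With 1 library left out this could hardly be otherwise. In every called gene the pairwise responses of si-CBX3 lay outside those of si-control, so the sign was nearly fixed beforehand. Calls were less stable than signs: with the replicate block 5 of the 92 lost their call. The count of 1690 called genes was 1656 with DESeq2 size factors, 1633 with library totals, 2107 with DESeq2, 2130 without a filter, 1819 with a mean log2 CPM of at least 1 and 2324 when only the 8 libraries were fitted. Among the 4 groups compared, the replicate numbers did not pair the samples (correlations of deviations -0.167 to 0.152, 1 of 6 above 0.1). With the other groups of the fit they reached 0.54 (si-CBX3 with si-BRG1 at 6 h) and -0.423 (si-CBX3 with si-FOXA1 at 6 h). Between 6 h and 0 h they were 0.291 in si-BRG1 and 0.298 in si-FOXA1. The replicate block gave 1495 calls, and 2017 with the 8 libraries alone. The share of calls that were higher was 51.5% in the fit reported and 43.6% with library totals, 65.4% without the first si-CBX3 library at 6 h and 62.9% without the second si-control library at 0 h. Genes of 2-fold or more numbered 190 with a mean log2 CPM of at least 1, where 12269 genes were tested. The partial class held 485 genes without a filter and 524 with the 8 libraries alone. The cause of these moves was not tested. With 1 library left out, called genes numbered 830 to 2029, higher ones 425 to 1106 and lower ones 345 to 923. The 0 h class then held 416 to 982 genes, the 6 h class 202 to 502, the class of opposite differences 96 to 191 and the partial class 106 to 354. Weaker responses numbered 268 to 749, opposite 69 to 181, stronger 228 to 318 and responses called in si-CBX3 alone 245 to 757, and repressed responders with a lower response 24 to 37. With 2 libraries a group, these ranges show how far single libraries set the counts.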
